A study of Mus musculus with 6 samples.

Results

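Complement genes encode a cascade of plasma and cell-surface proteins, and 9 of them were chosen by gene name: *C1qa*, *C1qb*, *C1qc*, *C1ra*, *C3*, *C4b*, *Cfd*, *Serping1* and *C3ar1*. Of these, 8 had a row among the 19270 genes of the table of group means, and *Cfd* had no value analysed here. The rule for choosing them uses names only, although earlier results of these data were known when it was set.

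RNA was sequenced in bulk from the proximal region of the mouse incisor, with 3 control and 3 *Arid1b* mutant samples. The mutant samples came from mice with the genotype *Gli1-CreER;Arid1b* fl/fl. Tamoxifen activates this Cre in cells that express *Gli1* and so deletes *Arid1b* in those cells and their progeny. The control samples are labelled wild type, whereas the study's methods describe the controls as *Arid1b* fl/fl mice without the Cre. Both groups received tamoxifen at 1 month of age and were sampled 4 days after its induction. The Cre is active in cells of the mesenchymal and the epithelial lineage, so the deletion was not limited to the mesenchyme.

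For each gene the table holds the authors' mean of each group as a normalized signal, on which the upper quartile of the 6 libraries lies between 44.57 and 44.58. Values of single samples were not analysed here, so no spread between samples and no test accompany any difference. A gene was counted as higher or lower when the authors' means differed by more than 1.5-fold. Depth was estimated from the smallest value in each library, taken as 1 added read, at 39868312, 39556420 and 39087724 reads for control samples 1 to 3. The estimates for mutant samples 1 to 3 were 49594469, 42625066 and 37123643 reads. On this scale 3 reads per library correspond to a signal of 0.103 in the control and 0.0923 in the mutant, and this level is called the floor below. It covers counting error only.

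The complement system tags cells and debris for uptake and can lyse membranes. In its classical pathway C1q binds the target and activates the proteases C1r and C1s, which cleave C4 and C2 to form an enzyme that in turn cleaves C3. Tissue macrophages are the main source of C1q, while C1r, C1s, C4, C3 and the C1 inhibitor encoded by *Serping1* are also made by fibroblasts and other stromal cells.

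The targeted gene was examined as a check of the labels. The authors' mean of *Arid1b* was 97.6 in the control and 38.0 in the mutant, a log2 ratio of mutant to control of -1.36. Transcripts of *Arid1b* thus were lower in the libraries labelled mutant.

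All 8 complement genes with a value had a higher authors' mean in the mutant than in the control, and 2 of them, *C1ra* and *C4b*, were past 1.5-fold. None was past 1.5-fold lower. Of all 19270 genes, 7.37% were more than 1.5-fold higher in the mutant and 5.8% were more than 1.5-fold lower. Among the 10311 genes with a mean over both groups of at least 10, these shares were 2.15% and 0.912%, and 6 of the 8 complement genes belong to this class, with *C1ra* as the only member of it past the fold. The median log2 ratio of the 8 genes was 0.13, beside 0.00 for all genes, of which 50.5% were higher in the mutant. The 3 C1q genes had a median log2 ratio of 0.06, and the 4 measured stromal components (*C1ra*, *C3*, *C4b* and *Serping1*) had a median of 0.46. The difference between these medians was not tested.

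**Figure D1:**
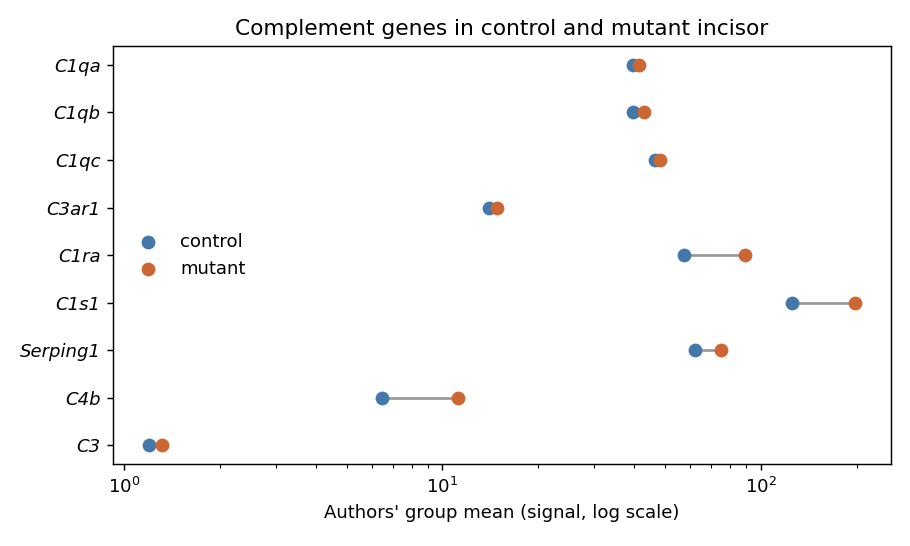
Authors' mean of each complement gene in control (blue) and *Arid1b* mutant (orange) incisor, with *C1s1* added as the partner of *C1ra*; the x axis is the signal on a log scale and a gray line joins the means of a gene. The C1q genes and *C3ar1* lie close together in both groups, whereas *C1ra* goes from 57.2 to 89.1, *C1s1* from 125.8 to 198.0 and *C4b* from 6.47 to 11.2.

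C1q, the recognition molecule of the classical pathway, is built from the A, B and C chains encoded by *C1qa*, *C1qb* and *C1qc*. The authors' mean of *C1qa* was 39.6 in the control and 41.3 in the mutant, a 1.04-fold ratio. That of *C1qb* was 39.6 and 43.1, a 1.09-fold ratio, and that of *C1qc* was 46.7 and 48.2, a 1.03-fold ratio. The 3 chains therefore had ratios between groups within 10% of 1. Each value rests on many reads, from about 1530 per library for *C1qa* in the control to about 2088 for *C1qc* in the mutant.

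Macrophage markers were read beside C1q. Of 20 listed markers all had a row, 16 were higher and 4 lower in the mutant, with a median log2 ratio of 0.20, and their summed signal was 646.8 in the control and 679.8 in the mutant. The most abundant of them, the mannose receptor *Mrc1*, had an authors' mean of 124.3 in the control and 117.4 in the mutant, and the scavenger receptor *Stab1* had 120.9 and 114.9. Past 1.5-fold were *Ms4a7*, at 6.44 in the control and 10.1 in the mutant, and, in the opposite direction, *Lyve1*, at 26.9 and 13.6. *Lyve1* marks a class of tissue macrophages and also lymphatic vessels. Per kilobase of exon, the summed C1q level was 48.6% of the summed level of the macrophage markers in the control and 46.4% in the mutant. In bulk tissue, fewer cells of a type and less RNA per cell cannot be told apart.

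*C3ar1* encodes the receptor for the C3a fragment and is expressed by macrophages and other myeloid cells. Its authors' mean was 14.0 in the control and 14.9 in the mutant, a log2 ratio of 0.08. This ratio lies within the range of the C1q genes, from 0.05 to 0.12.

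*C1ra* encodes C1r, the protease that C1q activates and that cleaves C1s. Its authors' mean was 57.2 in the control and 89.1 in the mutant, a 1.56-fold ratio (log2 0.64) that only 6.63% of all genes exceeded. *C1s1* encodes C1s, its substrate and partner, and was 125.8 in the control and 198.0 in the mutant, a 1.57-fold ratio (log2 0.65). The pair thus had nearly the same ratio between groups. Per kilobase of exon the level of *C1s1* was 2.09 times that of *C1ra* in the control and 2.12 times in the mutant.

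Both proteases have a related gene nearby that shares sequence with them. Of the 50-base windows in the exons of *C1ra*, 48.0% also occur in *C1rb*, and 21.8% of those of *C1s1* occur in *C1s2*, so reads could be split between copies by the authors' counting. The copies themselves had little signal. *C1rb* had an authors' mean of 0.0682 in the control, under the floor, and 0.147 in the mutant, while *C1s2* had 0.231 and 0.331. *Gm16567*, an antisense gene on the opposite strand, covers 94.9% of *C1s1*, and the use of strand in the counting is not given in the sources used here. Its authors' mean was 0.320 in the control and 0.293 in the mutant, far under that of *C1s1*.

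*Serping1* encodes the C1 inhibitor, which inactivates C1r and C1s. Its authors' mean was 62.2 in the control and 75.2 in the mutant, a 1.21-fold ratio (log2 0.27) that did not pass 1.5-fold. Since *C1ra* and *C1s1* had higher ratios, the level of *Serping1* per kilobase was 45.0% of their summed level in the control and 34.7% in the mutant. The summed C1q level per kilobase was likewise 1.66 times that of *C1ra* and *C1s1* in the control and 1.12 times in the mutant.

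*C4b* encodes complement C4, the first substrate of C1s. Its authors' mean was 6.47 in the control and 11.2 in the mutant, a 1.73-fold ratio (log2 0.79) that 4.70% of all genes exceeded. These means correspond to about 249 and 485 reads per library. The mean over both groups lay under 10, where a larger share of genes passed 1.5-fold. *C4a*, a copy that encodes the sex-limited protein in mice, shares 34.6% of the 50-base windows of *C4b* and had an authors' mean of 0.752 in the control and 0.546 in the mutant, a log2 ratio of -0.46. The split of reads between *C4b* and *C4a* was not tested.

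*C3* encodes the central component on which all activation pathways meet. Its signal was low, with an authors' mean of 1.19 in the control and 1.32 in the mutant, or about 45.2 and 56.1 reads per library. The ratio was 1.10-fold (log2 0.14). Per kilobase *C3* was the lowest of the 8 genes in both groups.

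Levels between genes were compared per kilobase of merged exon. In the control the order from high to low was *C1qa* (38.1), *C1qb* (36.4), *Serping1* (26.8), *C1qc* (24.2), *C1ra* (19.2), *C3ar1* (3.26), *C4b* (1.14) and *C3* (0.232). In the mutant *C1ra* (29.9) stood above *C1qc* (25.0), and the other places were as in the control, with *C1qa* at 39.8, *C1qb* at 39.6 and *Serping1* at 32.3. The proteins that start the classical pathway and their inhibitor were thus far above the genes for C4 and C3 at the RNA level. With no spread between samples, which neighbours in this order differ cannot be told. The upper places also depend on the transcript, since with the length of the longest transcript 4 genes held another place in the control and *C1qc* (38.8) came first, while *Serping1* (42.5) came first in the mutant.

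Mesenchymal markers were read beside the stromal components. Of 12 listed fibroblast and mesenchyme markers 3 were higher and 9 lower in the mutant, none past 1.5-fold, with a median log2 ratio of -0.29 and a summed signal of 32714 in the control and 27282 in the mutant. The most abundant was *Col1a1*, at 21211 in the control and 17127 in the mutant, followed by *Col1a2*, at 4106 and 3330. Higher in the mutant were *Col3a1*, at 1764 in the control and 2187 in the mutant (log2 0.31), *Twist1* (log2 0.22) and *Prrx1* (log2 0.07). The summed level of *C1ra* and *C1s1* per kilobase was 1.13% of that of these markers in the control and 2.14% in the mutant. This share depends mostly on *Col1a1*, which alone was 3232 per kilobase in the control and 2610 in the mutant.

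The tissue of the study's methods is mesenchymal, but dental epithelium markers were present and differed between the groups. All 11 were higher in the mutant, 10 of them past 1.5-fold, with a median log2 ratio of 1.15 and a summed signal of 1587 in the control and 10287 in the mutant. Most of this signal came from the enamel matrix genes *Amelx*, at 361.9 and 3946, *Ambn*, at 617.4 and 3360, and *Enam*, at 135.8 and 1983. The keratins *Krt5*, at 154.2 and 358.5, *Krt14*, at 90.4 and 182.3, and *Krt17*, at 56.7 and 133.4, were also past the fold, as were *Cdh1* and *Epcam*. Their part in the higher means of *C1ra*, *C1s1* and *C4b* was not tested.

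All 5 erythroid genes with a row were past 1.5-fold lower in the mutant, with a median log2 ratio of -1.53 and a summed signal of 43.5 in the control and 14.8 in the mutant. The most abundant, the globin gene *Hbb-bs*, was 29.0 in the control and 9.97 in the mutant. Hepatocytes make most complement of the plasma, and of 8 listed hepatocyte and plasma protein genes 3 had a row, 1 higher and 2 lower in the mutant, with a median log2 ratio of -0.89. All had an authors' mean under 1, such as *Apoa2* at 0.301 in the control and 0.162 in the mutant and *Alb* at 0.205 in the control and 0.251 in the mutant.

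Adipocytes are the main source of factor D, the product of *Cfd*. Of 8 adipocyte genes 3 had a row, 2 higher and 1 lower in the mutant, with a median log2 ratio of 0.56, and *Adipoq*, *Plin1*, *Lep*, *Retn* and *Cidec*, like *Cfd*, had no value analysed here. *Lpl*, which other cells also express, was 11.2 in the control and 16.8 in the mutant, and *Car3* was 12.9 and 19.0.

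Sex-linked transcripts differed between the groups. *Xist*, transcribed from the inactive X chromosome, had an authors' mean of 3368 in the control and 813.8 in the mutant. The Y-linked gene *Ddx3y* was at the lowest value of the table in the control and at 65.3 in the mutant, and *Uty* was under the floor in the control and at 29.8 in the mutant. The labels give no sex, and for every complement gene a difference by sex and a difference by genotype cannot be told apart.

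Beyond the chosen genes, 47 further complement genes were listed by step of the cascade, and 32 of them had a row. Of these, 23 were higher and 9 lower in the mutant, with a median log2 ratio of 0.22. Past 1.5-fold higher were 7, namely *C1rb*, *C1s1*, *C6*, *Clu*, *Cd55*, *C5ar2* and *Vsig4*, against 7.37% of all genes, and 0 were past 1.5-fold lower. Of the 11 with a mean over both groups of at least 10, 3 were past the fold (*C1s1*, *Clu* and *Cd55*), against 2.15% of genes in that class.

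Of 13 genes for the start of the classical and lectin pathways 9 had a row, 7 were higher and 2 lower, with a median log2 ratio of 0.44. The gene with the highest signal was *Colec12*, a scavenger receptor with a collectin domain, at 599.9 in the control and 564.4 in the mutant. *C1rl*, a protease related to C1r, was 7.83 in the control and 10.6 in the mutant, a 1.36-fold ratio. The lectin pathway protease gene *Masp1* was 3.86 and 4.82, and *Masp2* was 0.328 and 0.327. Ratios as high as that of *C1ra* were thus not seen for the MASP genes.

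Of the 4 genes for C2, the C4 copy and the alternative pathway 3 were higher and 1 lower, with a median log2 ratio of 0.25. *C2*, whose product is cleaved by C1s like C4, was 12.9 in the control and 18.4 in the mutant, a 1.43-fold ratio (log2 0.52). *Gm20547*, on the same strand, spans 54.5% of *C2* and *Zbtb12*, on the opposite strand, 48.7%, so its value is uncertain. Their own log2 ratios were -0.03 and -0.19. *Cfb*, which encodes factor B of the alternative pathway, was 0.974 in the control and 1.34 in the mutant, and *Cfp*, which encodes properdin, was 9.25 and 9.57.

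The terminal pathway, which builds the membrane pore, was barely represented. Of 7 genes 2 had a row, *C6* at 0.0764 in the control, under the floor, and 0.158 in the mutant, and *C8g* at 0.974 and 1.08.

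Of 7 fluid-phase regulators 3 had a row, 1 was higher and 2 lower in the mutant. The higher was *Clu*, which encodes clusterin, a chaperone that also blocks the terminal complex. *Clu* was 149.9 in the control and 682.7 in the mutant, a 4.55-fold ratio (log2 2.19).

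Among membrane regulators, 7 of 8 had a row, 5 were higher and 2 lower, with a median log2 ratio of 0.06. *Cd55* encodes decay-accelerating factor, which dissociates the enzymes that cleave C3, and was 9.83 in the control and 40.2 in the mutant, a 4.09-fold ratio (log2 2.03). *Cd59a*, an inhibitor of the membrane pore, was 68.0 and 77.0, and *Cr1l*, which encodes the rodent regulator Crry, was 51.9 and 52.9. Of these 7 membrane regulators, *Cd55* alone was past 1.5-fold. *Clu* and *Cd55* had higher ratios than any of the 8 chosen genes, and the part of the dental epithelium markers, with their median log2 ratio of 1.15, in them was not tested.

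Among the 8 further receptors 7 had a row, 5 were higher and 2 lower, with a median log2 ratio of 0.12. *Cd93*, which is also an endothelial gene, was 118.3 in the control and 106.8 in the mutant, and *Itgam*, the alpha chain of complement receptor CR3, was 12.7 and 13.8. *Vsig4*, a macrophage receptor for C3b, was 1.20 in the control and 2.43 in the mutant, and *C5ar2*, a receptor for C5a, was 0.730 and 1.45. The main C5a receptor gene *C5ar1* was 5.43 and 4.80. Both receptor genes past the fold thus had low signal.

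**Figure D2:**
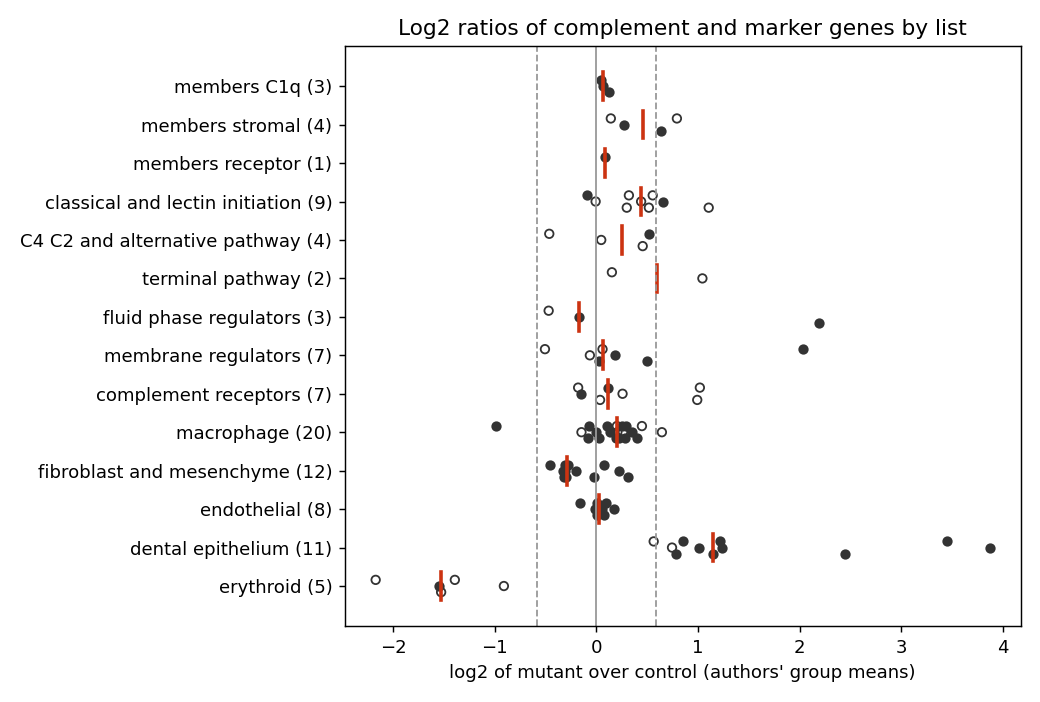
Log2 ratio of the authors' means (mutant over control, x axis) for each gene of the complement and marker lists, with the number of genes that have a row in parentheses; open circles are genes with a mean over both groups under 10, red bars are medians and dashed lines mark 1.5-fold. The C1q genes lie near 0 (median 0.06), the stromal components spread up to 0.79, and the dental epithelium (median 1.15) and erythroid (median -1.53) lists lie on opposite sides.

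The chosen genes were placed on the GRCm38 assembly with the GENCODE vM21 annotation. The C1q genes lie side by side on the minus strand of chromosome 4, with *C1qb* at 136880129 to 136886187, *C1qc* at 136889804 to 136893065 and *C1qa* at 136895917 to 136898803. The nearest gene before the cluster was *Ephb2*, 44140 bases away, at 5.37 in the control and 7.26 in the mutant. After it came *Epha8*, with no value analysed here, and then *Zbtb40*, at 14.8 and 13.9. The C1q genes share no 50-base window with each other, so their values do not rest on shared reads of that length.

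*C1ra* (124512405 to 124523443, plus strand) and *C1s1* (124530345 to 124542359, minus strand) are neighbours on chromosome 6, in a cluster that also holds *C1rl*, *C1rb* and *C1s2*. The log2 ratios of these 5 genes were all above 0, from 0.44 for *C1rl* to 1.11 for *C1rb*, the latter with its control mean under the floor. *C1rb* rests on about 1.64 reads per library in the control and 5.36 in the mutant, and *C1s2* on 7.93 and 13.3. Of the 50-base windows of *C1rb*, 59.2% also occur in *C1ra*, and 26.9% of those of *C1s2* occur in *C1s1*. The part of shared reads in the ratios of *C1rb* and *C1s2* was not tested. *C3ar1* lies on the same chromosome at 122847138 to 122856161 on the minus strand.

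*C4b* (34728380 to 34743882), *C4a* (34809092 to 34823464), *Cfb* and *C2* lie on the minus strand of chromosome 17. Beside *C4b*, the pseudogenes *Cyp21a2-ps* and *Stk19-ps1* had no value analysed here, and the nearest gene with a value before it, *Tnxb*, was 0.690 in the control and 0.595 in the mutant. Between *C4a* and *Cfb*, *Stk19*, *Dxo*, *Skiv2l* and *Nelfe* had log2 ratios of -0.03, 0.05, 0.00 and -0.01. The ratios of the complement genes of the region lay farther from 0, with *C4b*, *C2* and *Cfb* above and *C4a* below. *C4a* rests on about 28.1 reads per library in the control and 22.7 in the mutant, and *Cfb* on 36.6 and 56.9. The log2 ratio of *C4a* was -0.18 with a pseudocount of 1 and -0.03 with a pseudocount of 10. *C3* lies elsewhere on chromosome 17, at 57203970 to 57228136 on the minus strand, *Serping1* on chromosome 2 at 84765387 to 84775444 on the minus strand, and *Cfd* on chromosome 10 at 79890853 to 79892655 on the plus strand.

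**Figure D3:**
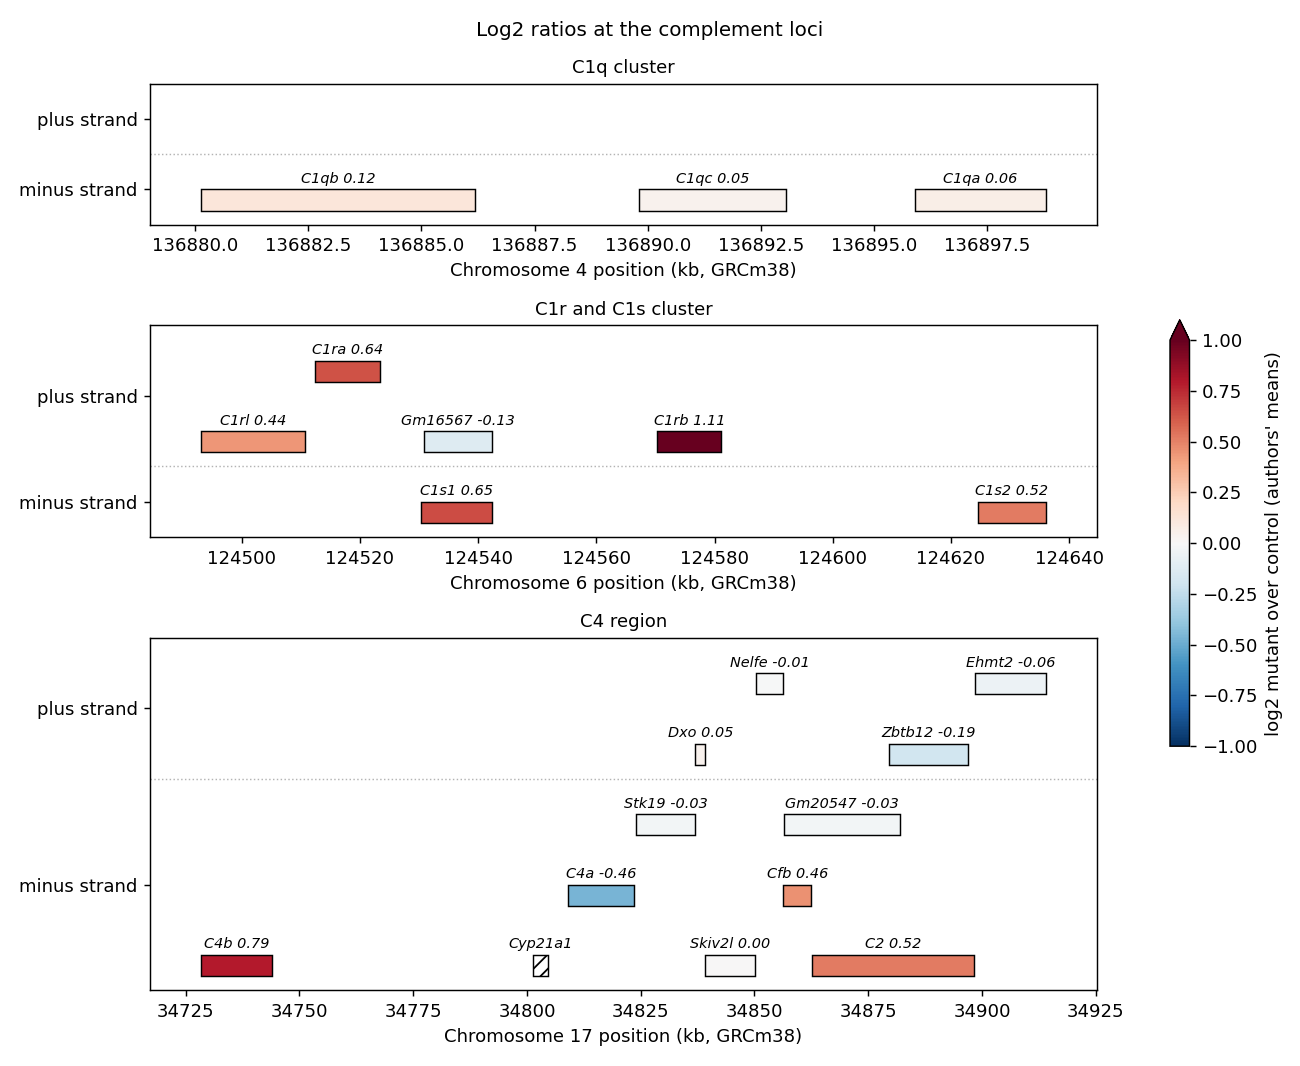
Maps of the C1q, C1r and C1s, and C4 regions, with position in kb (GRCm38) on the x axis and strand on the y axis; each box is an annotated gene, colored and labelled by the log2 ratio of the authors' means, and a hatched box has no value. The C1q genes are pale (0.05 to 0.12), the genes of the C1r and C1s cluster are red except the antisense gene *Gm16567* (-0.13), and *C4b* (0.79) and *C4a* (-0.46) differ in sign, while the control mean of *C1rb* is under the floor. *C4a* rests on about 28.1 reads per library in the control and 22.7 in the mutant.

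Promoter windows from RefSeq (GRCm38.p6) were matched for 6 of the 9 genes, all but *C1qa*, *C4b* and *Serping1*. In the 200 bases before each RefSeq start, 5 motifs were searched on both strands, and positions count from that start. The RefSeq start can differ from the GENCODE start used above. The window of *C1ra* (124512421 to 124512620) lies inside the gene as GENCODE places it, so the sequence before that GENCODE start was not searched. AGGAAGT, the core bound by ETS factors such as the macrophage factor PU.1, occurs in 6.34% of 32851 such windows. It was found before the RefSeq start of *C1qb*, at -53 to -47, and before that of *C1qc*, at -195 to -189. The *C1qc* window (136892915 to 136893114) overlaps the GENCODE gene, and counted from the GENCODE starts both positions would differ. TTGCNNAA, a core like that of C/EBP sites, occurs in 7.47% of windows and was found before *C3* as TTGCGAAA at -45 to -38. A pair of GAAA repeats set apart by NN (like an interferon-stimulated response element), TTCNNNGAA and TATAAA occur in 2.27%, 5.49% and 9.96% of windows. None of them had a match in the windows of the 6 genes, and the matches of the other motifs did not overlap. A match describes the letters only. The stretches around the ETS-like matches are shown because *C1qb* and *C1qc* share the motif, on the strand of the gene and with its reverse complement in capitals, from chr4:136886217-136886283 and chr4:136893073-136893139, both on the minus strand and with no annotated exon of the gene inside.
C1qb: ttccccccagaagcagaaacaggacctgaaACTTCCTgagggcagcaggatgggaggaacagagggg
C1qc: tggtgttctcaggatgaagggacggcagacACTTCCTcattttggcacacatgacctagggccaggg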

How the data were processed

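Bulk RNA-seq libraries of 3 control and 3 *Arid1b* mutant incisor samples were compared. Per the submitters' processing notes, reads were aligned with TopHat2 2.0.8 to mm10, and the study's methods name Partek Flow for trimming, alignment and differential expression. The counting, its annotation and its use of strand are not given in the sources used here. The values used were the group means deposited by the authors as a normalized signal, together with library summaries (lowest value, mean, median and upper quartile), from which depth was estimated. The low values fit reads plus 1 scaled by library. A further 4 columns of library summaries were not used. The deposited columns of p-values, FDR, ratios and fold changes hold the authors' own comparison and were not used.

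The authors' means were divided (mutant over control) and expressed as log2, with no pseudocount, in Python 3.11.15 with pandas 2.3.3 and numpy 2.4.6, and plotted with matplotlib 3.10.9. The calculation was run on simulated data with known changes planted in well-covered genes and no spread between animals, which checks the arithmetic only. Of 19270 genes, 18840 matched exactly 1 gene of GENCODE vM21 by name, from which exon lengths were taken. Alternatives were pseudocounts, folds 25% above 1 and of 2, a minimum mean of 10, other scalings and other lengths.

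The complement genes and all lists were chosen with earlier results of these data known. Named were the chosen genes, their copies and partners, the genes beside the C1q cluster and *C4b*, *Arid1b*, and of each list the 2 genes with the highest means and any past 1.5-fold with a mean of at least 10 in a group. Other complement, epithelial, sex-linked and neighbouring genes were named after their values were seen. Some genes of the lists are not reported here by name.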

Additional observations from a re-analysis of the deposited data

How the results depend on the processing

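No paired analysis was possible because the values per gene are means of each group and carry no replicate numbers, and leaving out each replicate in turn was not run for the same reason. The size of a difference therefore has no replicate check. A shift of 0.1 in log2 was taken as the limit for a ratio that moved, and a 1.5-fold change for a count. Higher by more than the fold in the mutant were 2 of the 8 complement genes at 1.5-fold, but 0 at a fold of 2, 1 when a mean over both groups of 10 was required, since *C4b* lies under it, and 0 with a pseudocount of 10. With that pseudocount the median log2 ratio of the stromal components was 0.30 in place of 0.46. The log2 ratio of *C1ra* was then 0.56 in place of 0.64, just under the fold, and that of *C4b* was 0.36 in place of 0.79. Of the other complement genes, 7 were past the fold, and 13 when a ratio 25% above 1 was enough, 3 when a mean of 10 was required, 4 with a pseudocount of 1 and 3 with a pseudocount of 10. With the 25% limit, 3 were lower in place of 0. A pseudocount shrinks all ratios by construction, and most strongly those of genes with low signal. No log2 ratio of the 8 genes changed sign under any setting run. Among the remaining values 24 moved and 115 did not; the medians of the interferon and inflammatory lists turned below 0 when a mean of 10 was required. Scaling by the sum of all means shifted log2 ratios by 0.06. In the control, *C1rb* and *C6* lay under the floor of 3 reads per library.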

Other observations

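Lists of genes that often change with complement were read in the same way. Of 12 interferon response genes 10 were higher and 2 lower in the mutant, with a median log2 ratio of 0.17, which turned below 0 when a mean over both groups of 10 was required (3 genes). *Irf1*, a transcription factor of the response, had an authors' mean of 17.1 in the control and 18.1 in the mutant. Past 1.5-fold were *Mx1*, at 0.718 and 1.10, and *Cxcl10*, at 0.268 and 0.624, both with low signal. Of 10 acute phase and inflammatory genes 7 had a row, 5 higher and 2 lower, with a median log2 ratio of 0.26, which was -0.10 when that mean was required (1 gene). *Nfkbia*, the most abundant, was 37.2 in the control and 34.8 in the mutant, *Socs3* was 3.82 and 5.42, and *Il1b* was past the fold at 0.277 and 0.953.

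Other cell types of the tissue were described by their markers. Of 8 neutrophil genes 4 were higher and 4 lower, with a median log2 ratio of -0.13 and a summed signal of 21.2 in the control and 17.2 in the mutant, led by *S100a9*, with a log2 ratio of -0.33, and *Ngp*, at 5.53 in the control and 4.15 in the mutant. Of 8 endothelial genes 6 were higher and 2 lower, with a median log2 ratio of 0.03 and sums of 387.2 and 392.2, led by *Cdh5* at 95.2 and 94.4 and *Kdr* at 77.9 and 69.6. Of 8 lymphocyte genes 2 had a row, with a median log2 ratio of 0.40, *Cd4* at 3.62 in the control and 5.46 in the mutant, which macrophages can also express, and *Cd79a* at 0.304 and 0.352.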
